A study of Homo sapiens with 10 samples.

Results

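The 10 genes described here make, recycle and break down glutathione, the most abundant small thiol of the cell. They are CHAC1, CHAC2, GCLC, GCLM, GSS, GSR, GGCT, SLC7A11, CTH and CBS, and they were found in the count table by gene symbol, with 1 row each among 28380 genes. All 10 passed the filter on low counts that left 13378 genes for testing. The cells were RPE-1, an established line of human retinal pigment epithelial cells immortalized with telomerase. In complete medium, 5 replicates received the vehicle DMSO and 5 received 25 µM sulforaphane (SFN), an isothiocyanate of cruciferous vegetables, both for 4 h. The methods describe each replicate as its own portion of treated cells and call replicates independent in general, without saying whether cultures or days differed, and the labels add nothing, so the p-values measure the spread between these libraries. Total counts ranged from 15689294 to 20666692 per library in DMSO and from 12375860 to 17308706 in SFN. Levels are given as TMM-scaled CPM, the counts of a gene relative to library size, and genes are called increased or decreased at an adjusted p under 0.05 by the quasi-likelihood test of edgeR, and SE is the standard error of a log2 fold change.

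Glutathione is a tripeptide of glutamate, cysteine and glycine that is built in a pair of ATP-dependent steps, first by glutamate-cysteine ligase and then by glutathione synthetase. Cysteine limits the supply, and cells obtain it by importing cystine through the antiporter of SLC7A11 and SLC3A2 or by making it from homocysteine through transsulfuration. SFN is an electrophile that reacts with thiols, glutathione included, and is known for releasing the transcription factor NRF2 from its inhibitor KEAP1. NRF2 is known to induce the ligase subunits and SLC7A11, while ATF4, the effector of the integrated stress response, is known to induce CHAC1, CTH and SLC7A11.

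RefSeq promoter sequences (GRCh38.p14, from 250 bases before to 50 after a gene's start) were held for 6 of the 10 genes, namely CHAC1, CHAC2, GCLC, GCLM, CTH and CBS, in 9 windows. Each window was searched on both strands for the core of the antioxidant response element that NRF2 binds, TGACNNNGC, and for the core of the C/EBP-ATF response element that ATF4 binds, TGATGNAA. Over 34796 distinct promoters of the same length, 13.3% held the first and 3.63% the second. The sites shown are the matches among these genes, 30 bases each, 5′ to 3′ on the gene's strand with the match in capitals, where it reads as the reverse complement of the motif.
CHAC1: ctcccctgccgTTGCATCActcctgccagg
GCLM: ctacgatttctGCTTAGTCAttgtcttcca
CBS: cccggctctggGCGCGGTCAcgcggggcgc
The CHAC1 site (chr15:40953251-40953280, plus strand) holds TGATGCAA on the opposite strand, from 209 to 202 bases before the RefSeq start, and lies in the untranslated part of an exon of a CHAC1 transcript in GENCODE 44 that starts farther upstream. GCLM (chr1:93909446-93909475, minus strand) holds TGACTAAGC from 34 to 26 bases before the start, and CBS (chr21:43076442-43076471, minus strand) holds TGACCGCGC from 83 to 75 bases before 1 of its 3 RefSeq starts. No match overlapped another, and a match describes the letters only.

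Because the ligase subunits behaved differently, the 250 bases before the start of GCLM (chr1:93909431-93909680, minus strand) and of GCLC (chr6:53545102-53545351, minus strand) are set side by side, with the match in capitals. In GENCODE 44, 26 bases of the GCLM stretch are exonic.
GCLM: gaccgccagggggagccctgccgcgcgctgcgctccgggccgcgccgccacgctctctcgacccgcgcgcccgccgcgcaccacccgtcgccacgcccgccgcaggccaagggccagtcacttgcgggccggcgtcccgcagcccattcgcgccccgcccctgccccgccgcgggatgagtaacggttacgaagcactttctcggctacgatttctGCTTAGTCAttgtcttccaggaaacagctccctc
GCLC: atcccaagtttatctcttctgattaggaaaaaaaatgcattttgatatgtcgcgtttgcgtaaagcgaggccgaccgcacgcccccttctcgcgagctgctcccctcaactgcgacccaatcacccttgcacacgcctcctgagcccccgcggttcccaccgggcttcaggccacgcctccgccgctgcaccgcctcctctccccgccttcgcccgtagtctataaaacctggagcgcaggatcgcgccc
The GCLC window held neither motif, which says only that these letters are not in this stretch.

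SFN raised the transcripts of cystine import, of transsulfuration, of the modifier subunit of glutamate-cysteine ligase and of glutathione synthetase, and CHAC1, which degrades glutathione, rose most. By the edgeR quasi-likelihood test, 6 of the 10 genes increased (CHAC1, CTH, SLC7A11, GCLM, CBS and GSS), against 9.07% of all genes tested. None decreased, 0 at an unadjusted p under 0.05 and 0 by DESeq2 or limma-voom, whereas 13.9% of all genes tested did. In bulk RNA, a change in the share of cells that express a gene and a change in its RNA per cell cannot be told apart. The median log2 fold change was 0.73 over the 10 genes and -0.03 over all genes tested. For 5 of the 10 (all called genes but GSS) the called log2 fold change was above 1, as for 2.94% of all genes tested, and for 0 it was below -1, as for 5.76%. CBS was close to that limit. Its log2 fold change was below 1 without DMSO replicate 1 (0.86), DMSO replicate 5 (0.99) or SFN replicate 1 (0.99). It was also below 1 with total count scaling (0.96) and with limma-voom sample quality weights (0.83). With the replicate number as a block CBS was not called (1.13, adjusted p = 0.051 by edgeR). The 6 increased genes had every SFN library above every DMSO library, which was the case for 8.78% of all genes tested. Over all genes 1214 increased and 1862 decreased, and with libraries scaled by total count alone 819 and 2163 did.

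**Figure D1:**
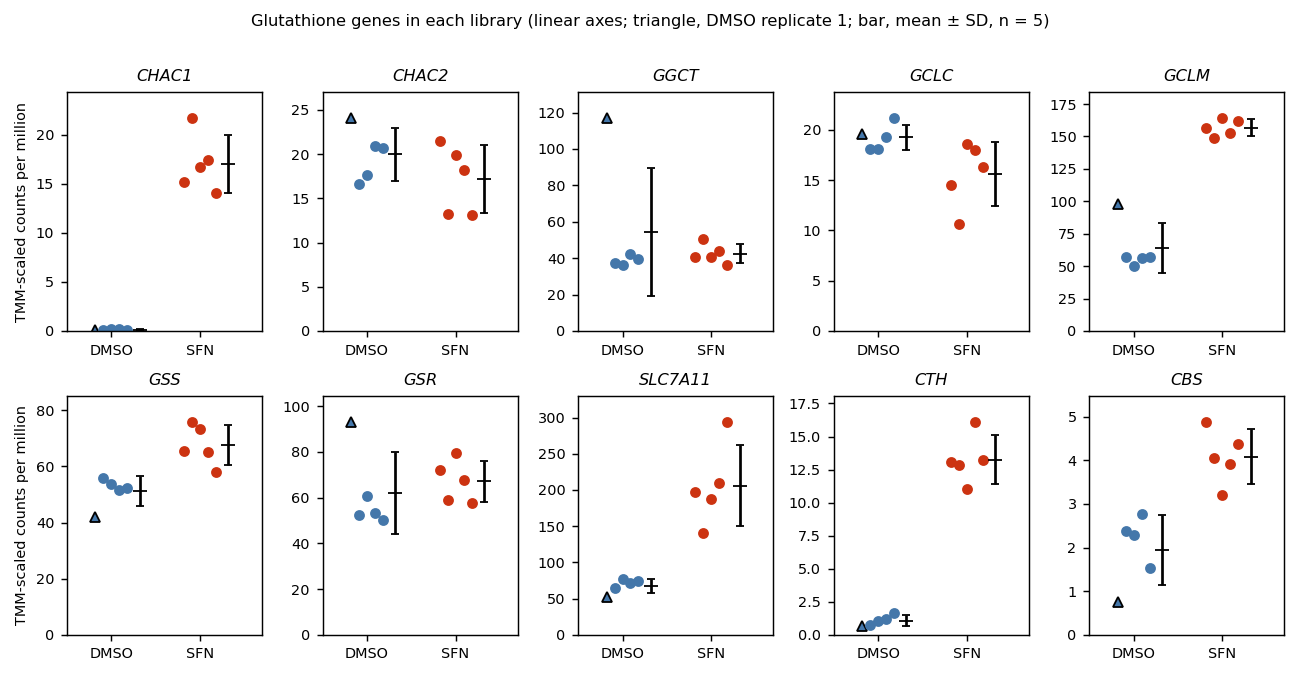
TMM-scaled CPM (linear axes from 0) of the 10 genes in every library, with DMSO in blue, SFN in red, DMSO replicate 1 as a triangle and the mean ± SD (n = 5) beside each group. CHAC1, CTH, SLC7A11, GCLM, CBS and GSS show no overlap between groups, while the triangle stands far above the other DMSO libraries for GGCT (117 CPM against at most 42.1).

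DMSO replicate 1 stood apart from the other libraries, with a mean Spearman correlation across genes of 0.935 with the other DMSO libraries, where those 4 had 0.979 to 0.982. Genes are not independent replicates, and the value is given as a description. Relative to the mean of the other DMSO libraries, the log2 level in this library was 1.595 higher for GGCT, 0.83 higher for GCLM and 0.78 higher for GSR, and -1.59 for CBS and -1.16 for CHAC1. The CHAC1 value rests on 1 count in this library and 1 to 4 in the others, too few to set the library apart. Values without this library are given beside the results whose call or sign it changed. Without it 7 of the 10 genes increased, GSR being the addition, against 22.5% of 13566 genes tested, and 0 decreased, against 23.5%. Of 11 markers of retinal pigment epithelium, 10 were in the table and 4 averaged under 1 CPM. RPE65, the retinoid isomerase that defines the mature tissue, had 0 counts in all DMSO libraries and at most 3 in an SFN library, and SERPINF1 had at most 2 counts, whereas KRT8, KRT18, MITF, BEST1 and OTX2 were measured. MITF and OTX2, transcription factors of this tissue, were the 2 called of 6 markers tested and decreased, against 13.9% of all genes. For both, every SFN library was below every DMSO library, as for 11.1% of all genes tested. MITF had 50.8 ± 4.95 CPM in DMSO and 23.4 ± 2.78 CPM in SFN (SD, n = 5 each; log2 fold change -1.12, adjusted p = 5.3e-05 by edgeR), and OTX2 had 14.04 ± 2.14 and 9.01 ± 0.286 CPM (log2 fold change -0.64, adjusted p = 0.0029 by edgeR). The other 4, not called by edgeR, had log2 fold changes of 1.17 (BEST1), 0.27 (KRT18), 0.23 (KRT8) and 0.14 (PMEL). The part of these 6 markers in the results on the glutathione genes was not tested. The summed level of the retinal pigment epithelium markers was 582 to 876 CPM in DMSO and 566 to 993 CPM in SFN, most of it KRT8 and KRT18. Among 11 markers of leukocytes, endothelium, neural cells and other epithelia, 7 were in the table and 6 of these averaged under 1 CPM, the exception being SYT1. Their sum was 21.4 to 26.3 CPM in DMSO and 20.8 to 33.0 CPM in SFN.

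CHAC1 encodes a cytosolic gamma-glutamylcyclotransferase that cleaves glutathione into 5-oxoproline and cysteinylglycine. The gene (ENSG00000128965) has 3 exons in its canonical transcript and lies at chr15:40952962-40956512 on the plus strand of GRCh38. In the DMSO libraries 1, 2, 4, 3 and 1 CHAC1 counts were found in replicates 1 to 5, and in the SFN libraries 255, 252, 224, 259 and 200. CHAC1 was thus close to the limit of detection in vehicle and present at 200 counts or more in each treated library. In CPM, the mean was 0.123 ± 0.0745 in DMSO and 17.0 ± 2.93 in SFN (SD, n = 5 each), where 3 counts would correspond to between 0.137 and 0.187 CPM in a DMSO library. The pooled counts, 11 in DMSO and 1190 in SFN, give a scaled ratio of 137, with an exact 95% interval from 76.1 to 274 that covers counting error only. The log2 fold change of CHAC1 was 7.02 (SE 0.27, adjusted p = 2.5e-08 by edgeR), a fitted value that depends on how counts near 0 are handled. It ranked 4 by log2 fold change and 6 by p-value among the 13378 genes, and leaving out any 1 library kept the log2 fold change between 6.86 and 7.33.

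CHAC2 and GGCT, which encode the other enzymes with gamma-glutamylcyclotransferase activity measured here, did not pass the test. CHAC2, known as a slow and constitutive relative of CHAC1, lies at chr2:53767804-53775196 (plus strand), where ASB3 runs over its 3′ end on the opposite strand. The CHAC2 level was 24.1, 16.6, 17.6, 21.0 and 20.7 CPM in DMSO replicates 1 to 5 and 21.5, 13.2, 19.9, 18.2 and 13.1 CPM in SFN replicates 1 to 5. The groups overlapped, and the CHAC2 log2 fold change was -0.22, with a 95% interval from -0.59 to 0.15 (adjusted p = 0.41 by edgeR). A rise of the size seen for CHAC1 lies outside this interval. ASB3 had 273 counts over all 10 libraries together.

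GGCT acts on gamma-glutamyl amino acids rather than on glutathione itself and lies at chr7:30496621-30504841 on the minus strand. GGCT was at 117 CPM in DMSO replicate 1, and at 37.4, 36.2, 42.1 and 39.5 CPM in DMSO replicates 2 to 5. In SFN replicates 1 to 5 it was at 40.8, 50.6, 40.7, 44.1 and 36.4 CPM, within the range of the DMSO libraries. The GGCT log2 fold change was -0.36 with all libraries (95% interval -1.04 to 0.32, adjusted p = 0.47 by edgeR). Without DMSO replicate 1 it was 0.13 (95% interval -0.09 to 0.34, adjusted p = 0.32 by edgeR), so that the sign of this difference rested on that library.

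The 2 subunits of glutamate-cysteine ligase differed in their response. GCLM, the modifier subunit that raises the affinity of the enzyme for glutamate, lies at chr1:93885199-93909456 (minus strand) and carries the antioxidant response element core shown for its promoter. Its level was 97.8, 56.8, 50.2, 56.5 and 56.9 CPM in DMSO replicates 1 to 5 and 156, 149, 164, 153 and 162 CPM in SFN replicates 1 to 5. All SFN libraries were high and close together, and DMSO replicate 1 lay between the other vehicle libraries and the treated ones. GCLM rose from 63.6 ± 19.3 to 157 ± 6.26 CPM (SD, n = 5 each), with a log2 fold change of 1.30 (SE 0.17, adjusted p = 2.0e-04 by edgeR). Without DMSO replicate 1 the GCLM log2 fold change was 1.504 (SE 0.08).

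GCLC, the catalytic subunit, lies at chr6:53497341-53616970 on the minus strand. Its level was 19.6, 18.0, 18.1, 19.3 and 21.2 CPM in DMSO replicates 1 to 5. In SFN replicates 1 to 5 it was 14.5, 10.6, 18.6, 18.0 and 16.3 CPM, so that 4 SFN libraries were below every DMSO library, replicate 4 barely so, and SFN replicate 3 was within their range. The GCLC log2 fold change was -0.30 (95% interval -0.62 to 0.02, adjusted p = 0.18 by edgeR), which leaves out a rise like that of GCLM. Under the 19 alternative analyses the GCLC value stayed negative, between -0.38 and -0.19, and was called in 0 of them, with adjusted p between 0.067 and 0.31.

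**Figure D2:**
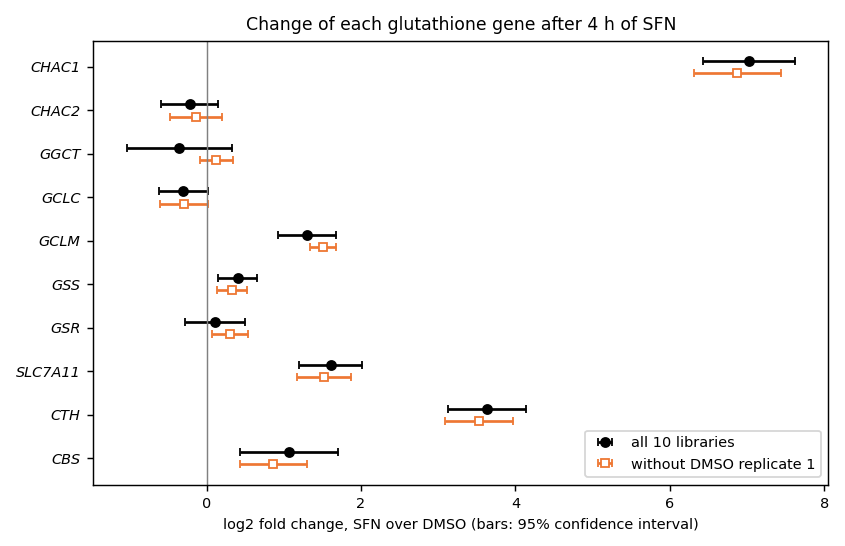
Log2 fold change of SFN over DMSO with its 95% confidence interval for each gene, by edgeR with all 10 libraries (black circles) and without DMSO replicate 1 (orange squares). CHAC1 (7.02) and CTH (3.63) lie farthest to the right, the CHAC2 and GCLC intervals include 0 in both fits, and the GGCT estimate changes sign between them.

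GSS encodes glutathione synthetase, which adds glycine to gamma-glutamylcysteine, and lies at chr20:34928432-34956027 (minus strand). GSS was at 42.1, 55.9, 53.8, 51.7 and 52.3 CPM in DMSO replicates 1 to 5 and at 65.6, 76.0, 73.35, 65.1 and 58.0 CPM in SFN replicates 1 to 5. The SFN libraries were all above the DMSO libraries, although SFN replicate 5 exceeded DMSO replicate 2 by little. The GSS mean rose from 51.2 ± 5.31 to 67.6 ± 7.19 CPM (SD, n = 5 each), a log2 fold change of 0.40 (SE 0.11, adjusted p = 0.024 by edgeR). This small increase was past the threshold in 13 of 19 alternative analyses. The call, though not the size, was lost without DMSO replicate 4 (0.40, adjusted p = 0.055), SFN replicate 2 (0.36, adjusted p = 0.056) or SFN replicate 3 (0.37, adjusted p = 0.068).

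GSR encodes glutathione reductase, which uses NADPH to regenerate glutathione from its disulfide, and lies at chr8:30678066-30727846 (minus strand). GSR was at 93.3, 52.6, 60.9, 53.1 and 50.2 CPM in DMSO replicates 1 to 5 and at 72.1, 59.0, 79.4, 67.6 and 57.55 CPM in SFN replicates 1 to 5. The highest GSR value of all libraries was that of DMSO replicate 1. With all libraries the GSR log2 fold change was 0.11 (95% interval -0.27 to 0.50, adjusted p = 0.71 by edgeR). Without DMSO replicate 1 it was 0.30 (SE 0.11, adjusted p = 0.034 by edgeR) and past the threshold, as it also was with sample quality weights in limma-voom (0.41, adjusted p = 2.0e-04).

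Cystine enters through the antiporter whose transport chain is SLC7A11, also called xCT, and whose anchoring heavy chain is SLC3A2. SLC7A11 lies at chr4:138164097-138242349 on the minus strand, and the antisense transcript SLC7A11-AS1 covers its 3′ end. The SLC7A11 level was 52.4, 64.2, 77.0, 71.3 and 73.8 CPM in DMSO replicates 1 to 5 and 197, 141, 188, 210 and 294 CPM in SFN replicates 1 to 5. Treated libraries were all higher, but they spread widely, with SFN replicate 5 the highest and SFN replicate 2 the lowest. SLC7A11 rose from 67.7 ± 9.79 to 206 ± 55.9 CPM (SD, n = 5 each), with a log2 fold change of 1.61 (SE 0.19, adjusted p = 8.5e-05 by edgeR). The antisense transcript SLC7A11-AS1 was too low to be tested, with 2, 4, 7, 8 and 9 counts in DMSO replicates 1 to 5 and 0, 0, 1, 1 and 5 in SFN replicates 1 to 5. Whether counting used the strand is not given in the sources used here, so reads of this pair cannot be told apart with certainty, although the antisense counts are few beside the 841 to 4170 counts of SLC7A11 per library.

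Transsulfuration makes cysteine from homocysteine and serine through cystathionine. CTH, cystathionine gamma-lyase, which releases the cysteine, lies at chr1:70411218-70439851 on the plus strand. CTH had 11, 16, 19, 20 and 28 counts in DMSO replicates 1 to 5 and 220, 149, 148, 239 and 187 in SFN replicates 1 to 5. Every treated library held at least 148 CTH counts and no vehicle library more than 28. CTH rose from 1.07 ± 0.396 to 13.3 ± 1.83 CPM (SD, n = 5 each), 12.4-fold, with a log2 fold change of 3.63 (SE 0.23, adjusted p = 1.2e-06 by edgeR). It ranked 37 among the 13378 genes by log2 fold change.

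CBS, cystathionine beta-synthase, which makes the cystathionine, lies at chr21:43053191-43076943 on the minus strand. CBS had 12, 52, 41, 46 and 26 counts in DMSO replicates 1 to 5 and 82, 47, 43, 58 and 62 in SFN replicates 1 to 5. In CPM the groups were separate, from 0.747 to 2.77 in DMSO and from 3.20 to 4.89 in SFN, with DMSO replicate 1 the lowest. CBS rose from 1.94 ± 0.803 to 4.09 ± 0.620 CPM (SD, n = 5 each), a log2 fold change of 1.06 (SE 0.29, adjusted p = 0.021 by edgeR). Without DMSO replicate 1 the CBS log2 fold change was 0.86 (SE 0.20, adjusted p = 0.0035 by edgeR). The call, though not the size, was lost without DMSO replicate 5 (0.99, adjusted p = 0.053) or SFN replicate 1 (0.99, adjusted p = 0.057). CBSL is a near-identical copy of CBS on GRCh38 between which the counting could split reads, so the separate value of CBS is uncertain. CBSL had 1 to 7 counts per DMSO library and 1 to 16 per SFN library, and with both genes summed, a choice made after seeing the data, the CBS log2 fold change was 1.07 (SE 0.26, adjusted p = 0.011 by edgeR).

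To compare partner genes without any scaling between libraries, the log2 ratio of their counts within each library was formed, with 0.5 added to each count, and 4 ratios were tested by exact two-sided permutation. With 5 libraries against 5 the smallest p such a test can give is 0.0079. The CHAC1 to CHAC2 ratio was -7.17 ± 0.80 in DMSO and 0.00 ± 0.46 in SFN (SD, n = 5 each), a difference of 7.17 (exact p = 0.0079, adjusted p = 0.011). CHAC1 thus rose relative to its relative CHAC2 in every treated library.

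The GCLM to GCLC ratio was 2.32, 1.65, 1.47, 1.55 and 1.42 in DMSO replicates 1 to 5 and 3.42, 3.81, 3.14, 3.09 and 3.31 in SFN replicates 1 to 5. It differed by 1.67 between the groups (exact p = 0.0079, adjusted p = 0.011), without overlap, and by 1.83 without DMSO replicate 1. The modifier subunit therefore gained on the catalytic subunit in these counts, whatever scaling is used. For CTH to CBS the ratio rose from -0.79 ± 0.75 to 1.69 ± 0.23 (SD, n = 5 each), a difference of 2.48 (exact p = 0.0079, adjusted p = 0.011).

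For SLC7A11 to SLC3A2, the chains of the cystine antiporter, the ratio was -1.74, -1.12, -0.70, -0.98 and -0.67 in DMSO replicates 1 to 5 and -1.72, -2.30, -1.84, -1.58 and -0.79 in SFN replicates 1 to 5. The groups overlapped, since DMSO replicate 1 was as low as treated libraries and SFN replicate 5 as high as vehicle libraries. The difference of -0.60 was not past the threshold (exact p = 0.11, adjusted p = 0.11). It was -0.78 without DMSO replicate 1 and -0.82 without SFN replicate 5, each with an adjusted exact p of 0.048, but these are the libraries that made the groups overlap. Leaving out any other replicate gave an adjusted exact p from 0.14 to 0.22, and the replicate block gave 0.125. SLC3A2, which also anchors other amino acid transporters, itself rose from 139 ± 22.0 to 629 ± 72.2 CPM (SD, n = 5 each; log2 fold change 2.17, SE 0.14, adjusted p = 1.2e-06 by edgeR).

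**Figure D3:**
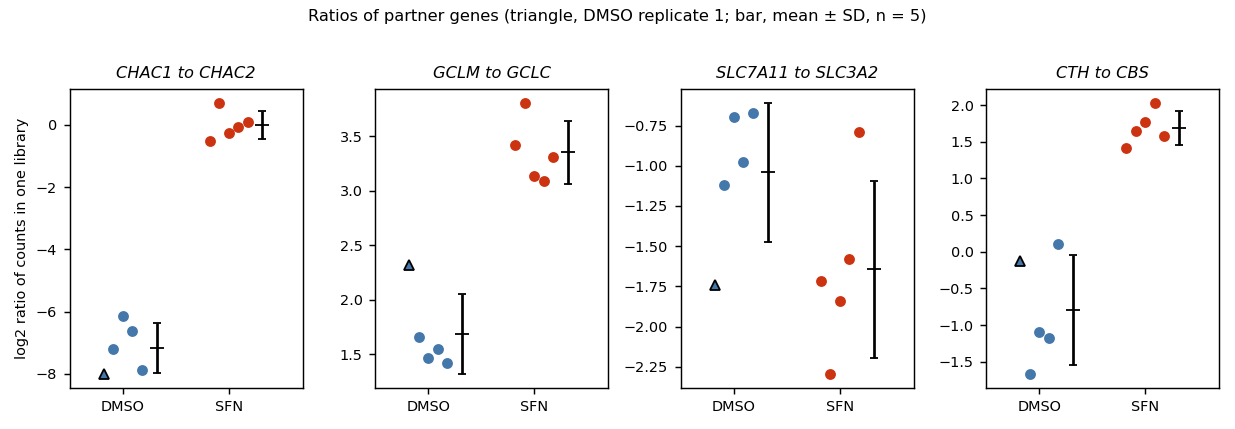
Log2 ratio of the counts of partner genes within each library for DMSO (blue) and SFN (red), with DMSO replicate 1 as a triangle and the mean ± SD (n = 5) beside each group. The ratios of CHAC1 to CHAC2, GCLM to GCLC and CTH to CBS separate the groups, and that of SLC7A11 to SLC3A2 does not.

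Beyond the 10 genes, a list of 50 genes of glutathione breakdown, precursor import, the methionine cycle, cysteine use, glutamate supply, glutathione transport and glutathione-dependent enzymes had 46 in the table and 36 that could be tested. In that list 5 genes increased and 3 decreased by edgeR, which is 13.9% and 8.33% of those tested, against 9.07% and 13.9% of all genes. Its median was 0.06 on the log2 scale. Without DMSO replicate 1 the counts were 13 and 6, or 36.1% and 16.7%, against 22.5% and 23.5% of all genes in the same analysis.

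In the import group, 2 of 4 genes tested increased, SLC3A2 and SLC1A4, against 9.07% of all genes. SLC1A4, an exchanger of neutral amino acids, rose from 12.4 ± 2.46 to 26.6 ± 1.39 CPM (SD, n = 5 each; log2 fold change 1.10, SE 0.15, adjusted p = 2.5e-04 by edgeR). Of 5 genes tested of breakdown and the gamma-glutamyl cycle outside CHAC1, CHAC2 and GGCT, 0 were called by edgeR (0 at an unadjusted p under 0.05), and their log2 fold changes lay between -0.06 and 0.31. GGT1, the membrane enzyme that starts breakdown of extracellular glutathione, averaged 0.212 CPM in DMSO and 0.991 CPM in SFN, too low to be tested.

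Among 7 genes tested of the methionine cycle, which supplies homocysteine, MAT2A was the 1 called by edgeR with all libraries, and it decreased, as did 13.9% of all genes, while without DMSO replicate 1 there were 2 increased (AHCY and MAT2B) and 3 decreased (MAT2A, MTR and MTRR), against 22.5% and 23.5% of all genes. MAT2A, the enzyme that makes S-adenosylmethionine in most tissues, was at 152 CPM in DMSO replicate 1, at 247 to 279 CPM in the other DMSO libraries and at 124 to 172 CPM in SFN. The MAT2A log2 fold change was -0.73 (SE 0.17, adjusted p = 0.0080 by edgeR) and -0.86 without DMSO replicate 1. AHCY, which releases the homocysteine, was at 228 CPM in DMSO replicate 1 and otherwise at 96.6 to 107 CPM in DMSO and 96.95 to 169 CPM in SFN, with a log2 fold change of 0.07 (adjusted p = 0.88 by edgeR), and 0.40 without DMSO replicate 1 (adjusted p = 0.017). Without that library MTR and MTRR, methionine synthase and its reductase, had -0.66 (adjusted p = 5.3e-04) and -0.45 (adjusted p = 0.0046), and MAT2B had 0.27 (adjusted p = 0.023), all by edgeR.

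Of 9 genes tested that use cysteine outside glutathione, 1 increased and 2 decreased, near the 9.07% and 13.9% of all genes. ETHE1 also increased without DMSO replicate 1 (0.44, adjusted p = 0.036 by edgeR), which makes 22.2% in each direction, against 22.5% and 23.5% of all genes. SUOX, the mitochondrial sulfite oxidase at the end of cysteine catabolism, fell from 6.94 ± 0.719 to 2.60 ± 0.381 CPM (SD, n = 5 each; log2 fold change -1.41, SE 0.15, adjusted p = 6.3e-05 by edgeR). ADO, a thiol dioxygenase that oxidizes cysteamine, had a log2 fold change of -0.46 (SE 0.12, adjusted p = 0.013 by edgeR). For SUOX and ADO every SFN library was below every DMSO library, as for 11.1% of all genes tested. GOT1, the cytosolic aspartate aminotransferase, had a log2 fold change of 0.41 (SE 0.10, adjusted p = 0.013 by edgeR).

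Neither glutamate supply (2 genes tested) nor glutathione transport (3 genes tested) held a called gene by edgeR with all libraries, against 9.07% increased and 13.9% decreased of all genes, with 0 and 1 increased at an unadjusted p under 0.05. All 3 transport genes were called by edgeR without DMSO replicate 1, as were 22.5% (increased) and 23.5% (decreased) of all genes. The mitochondrial carriers SLC25A39 and SLC25A40 then increased, by 0.43 (adjusted p = 0.029) and 0.28 (adjusted p = 0.020), and the export pump ABCC1 decreased, with -0.26 (adjusted p = 0.038).

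All 6 glutathione-dependent redox and aldehyde enzymes had log2 fold changes above 0, and 2 increased by edgeR, against 9.07% of all genes. There were 5 without DMSO replicate 1, against 22.5% of all genes, since HAGH (0.52, adjusted p = 0.0070), ESD (0.33, adjusted p = 0.039) and ADH5 were added. GLRX, a glutaredoxin that removes glutathione from protein thiols, rose from 13.4 ± 3.80 to 23.4 ± 4.65 CPM (SD, n = 5 each; log2 fold change 0.80, SE 0.20, adjusted p = 0.011 by edgeR), and DMSO replicate 1, at 19.7 CPM, overlapped with SFN. GLO1, which detoxifies methylglyoxal with glutathione as cofactor, rose from 126 ± 12.8 to 168 ± 13.3 CPM (log2 fold change 0.42, SE 0.11, adjusted p = 0.014 by edgeR). ADH5, which oxidizes the glutathione adduct of formaldehyde, had a log2 fold change of 0.17 (95% interval -0.11 to 0.44, adjusted p = 0.40 by edgeR), and 0.26 without DMSO replicate 1 (95% interval 0.08 to 0.45, adjusted p = 0.023).

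**Figure D4:**
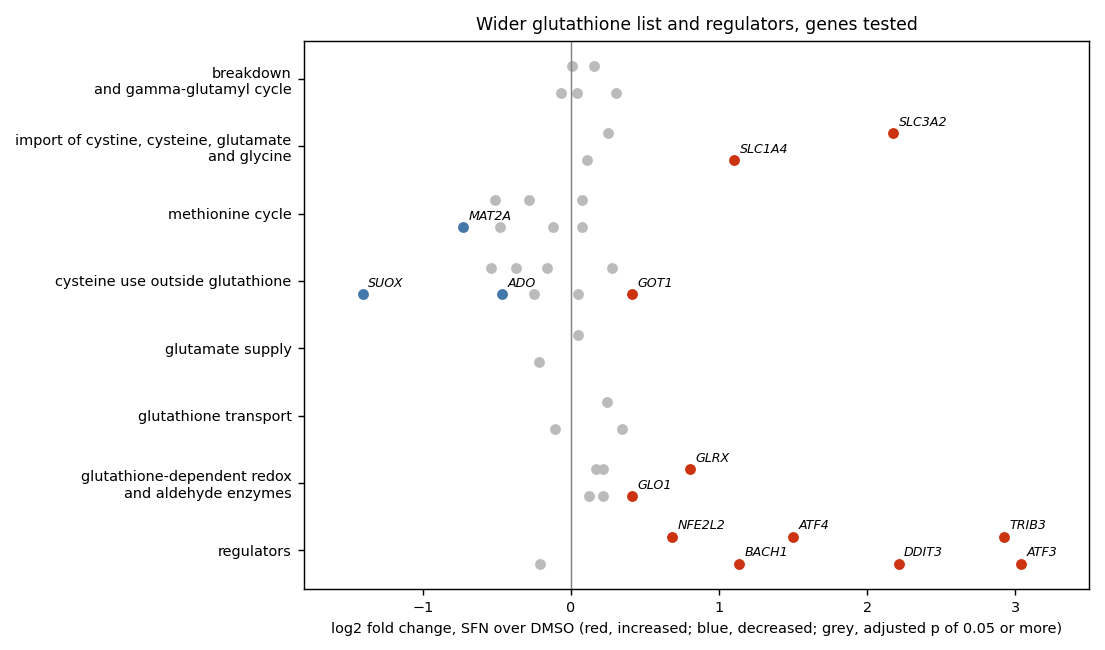
Log2 fold change of SFN over DMSO by edgeR for each tested gene of the wider glutathione list and of the regulators, grouped by role, with increased genes in red, decreased genes in blue and genes not called in grey. The regulators (6 of 7 increased) and the importers SLC3A2 and SLC1A4 lie to the right, and SUOX (-1.41) lies farthest to the left.

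Of 7 regulators known to act on these genes, 6 increased by edgeR, each with every SFN library above every DMSO library, against 9.07% and 8.78% of all genes tested. This list was chosen with earlier results of these data known, so its share is a description only. TRIB3 and ATF3, stress-induced targets and modulators of ATF4, differed by 2.92 (SE 0.20, adjusted p = 1.8e-06) and 3.04 (SE 0.22, adjusted p = 2.5e-06) on the log2 scale. DDIT3, which encodes the stress factor CHOP, had a log2 fold change of 2.21 (SE 0.19, adjusted p = 1.1e-05 by edgeR). ATF4 was at 432 CPM in DMSO replicate 1, at 167 to 220 CPM in the other DMSO libraries and at 495 to 812 CPM in SFN, with a log2 fold change of 1.502 (SE 0.26, adjusted p = 0.0015 by edgeR) and 1.83 without DMSO replicate 1. BACH1, a repressor that competes with NRF2, rose from 45.9 ± 9.96 to 101 ± 19.3 CPM (log2 fold change 1.13, SE 0.18, adjusted p = 8.2e-04 by edgeR). NFE2L2, which encodes NRF2, was at 87.7 to 128 CPM in DMSO and 160 to 175 CPM in SFN, and KEAP1 was not called, with a log2 fold change of -0.21 (95% interval -0.57 to 0.15, adjusted p = 0.42 by edgeR).

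The genes whose log2 CPM over the 10 libraries was most like that of CHAC1, among 10039 candidates with a mean of at least 5 CPM, were XBP1, PPP1R15A, BAG3, DNAJB1 and SLC25A25, with Pearson's r from 0.994 to 0.995. PPP1R15A rose from a mean of 170 to 633 CPM and SLC25A25 from 23.0 to 51.3 CPM. Among the glutathione genes r with CHAC1 was 0.98 for CTH, 0.93 for SLC7A11, 0.92 for GCLM, 0.85 for GSS and 0.80 for CBS. It was 0.24 for GSR, -0.23 for GGCT, -0.45 for CHAC2 and -0.64 for GCLC. These values describe 10 libraries that share the treatment difference, the depth and DMSO replicate 1. Within SFN the order of the libraries differed between genes, since SFN replicate 2 was the highest for CHAC1 (21.7 CPM) and the lowest for SLC7A11 (141 CPM), while SFN replicate 5 was the lowest for CHAC1 (14.1 CPM) and the highest for SLC7A11 (294 CPM).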

How the data were processed

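The authors sequenced RNA of RPE-1 cells as Lexogen QuantSeq libraries, which read the 3′ ends of transcripts, and deposited raw counts per Ensembl gene, not normalized. Their methods name the Bluebee pipeline, and the submitters' processing notes name FastQC, STAR, featureCounts, edgeR and the builds hg38 and GRCh38. Versions, counting rules, use of strand and molecular identifiers are not given in the sources used here. The authors tested with voomWithDreamWeights on quantile normalized values with a term for repeated measures that they do not define. Of the alternatives here, limma-voom with quantile normalization has no such term, and the replicate block is a term for the replicate number only.

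The counts were filtered with filterByExpr, scaled by TMM and compared with glmQLFit and glmQLFTest in edgeR 4.0.16 (R 4.3.3), with Benjamini-Hochberg adjustment over all 13378 genes. SE was taken as log2 fold change divided by root F, without sign. Ratios within libraries were compared by exact permutation in SciPy 1.17.1. Alternatives were RLE, upper quartile and total count scaling, DESeq2 1.42.0, limma 3.58.1 voom with quantile normalization or with sample quality weights, no low-count filter, a mean of at least 5 CPM, a replicate block, and leaving out each replicate. The test was also run on simulated counts, but the outcome is not reported and no result here rests on it.

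All 10 genes are named, as are 7 regulators, SLC3A2, CBSL and the 5 genes most like CHAC1. From the wider list, the called genes (up to 15) and the 3 most abundant genes not called were chosen. Genes of that list called only without DMSO replicate 1 are named too, a choice made after seeing the data, as is GGT1, which was not tested. Among genes that overlap a member, ASB3 and SLC7A11-AS1, which cover its 3′ end, are named. Others, such as MYH7B at GSS (90 counts over all libraries), are not described. Of these, 1 gene of the wider list is not reported here. Members and lists were chosen with earlier results of these data known. Counts of replicate pairs differed by chi-square per degree of freedom of at least 3.50, more than if 1 library had been deposited more than once, which does not show separate cultures. Positions are those of GENCODE 44 (28145 of 28380 identifiers matched), promoters those of RefSeq. Intervals of counts cover counting error only.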

Additional observations from a re-analysis of the deposited data

Results flagged for a closer look

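Over 34 groups of 5 libraries (the levels of the 10 genes, the 4 ratios and 3 library measures), 1 library stood apart in 6, where chance gives about 1 in 20, or 1.7. It was DMSO replicate 1 in all 6. The groups share libraries and counts and are not independent, so the 6 cannot be weighed against the 1.7 as a test. The figure given for each is the gap to the nearest library over the range of the group. In DMSO it was 0.927 for GGCT (117 CPM against 36.2 to 42.1), 0.859 for GCLM (97.8 CPM against 50.2 to 56.9), 0.751 for GSR (93.3 CPM against 50.2 to 60.9) and 0.742 for the GCLM to GCLC ratio (2.32 against 1.42 to 1.65). For the libraries themselves it was 0.911 for the TMM factor (0.886 against 1.06 to 1.08) and 0.933 for the mean Spearman correlation with the other DMSO libraries (0.935 against 0.979 to 0.982). The part of this library in the results was measured only by leaving it out.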

How the results depend on the processing

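Of 189 fold changes of the 10 genes under other analyses, 176 kept their direction and their side of the threshold, 9 were no longer past it, 2 were newly past it and 2 changed sign, and the cause was not tested. CHAC1, CTH, SLC7A11 and GCLM were called in all 19 alternatives. The sign changed for GGCT without DMSO replicate 1 (0.1259, with -0.4742 the other end of the range over left-out replicates) and with limma-voom sample quality weights (0.0819). GSS was also lost with total count scaling (0.31, adjusted p = 0.15), no low-count filter (0.39, adjusted p = 0.090) and the replicate block (0.40, adjusted p = 0.051), and CBS with the block (1.13, adjusted p = 0.051). With a mean of at least 5 CPM, CBS could not be tested. Leaving out each replicate gave 5 to 7 of the 10 genes increased and 0 decreased, 5 to 13 of the wider list increased and 3 to 6 decreased, and 906 to 3058 of all genes increased and 1470 to 3193 decreased. Each highest count was without DMSO replicate 1. The wider list had 3 increased with total count scaling, and 13 increased and 7 decreased with sample quality weights, where 3874 and 4041 of all genes were called. The difference of the SLC7A11 to SLC3A2 ratio ranged from -0.82 to -0.44 with each replicate left out. Deviations of same-numbered libraries correlated from -0.27 to 0.48, and those of libraries with other numbers from -0.62 to 0.50. For replicate 5 the same-numbered value was 0.48, against -0.34 to 0.01 with other numbers. With so few libraries these values cannot settle whether the replicate number marks a pair. With the replicate block 4 of the 10 genes increased and 0 decreased, beside 911 and 1530 of all 13378 genes, and the ratio differences of 7.17, 1.67 and 2.48 had an adjusted exact p of 0.083, since 5 pairs cannot reach 0.05. Depth limits CHAC1 in DMSO (1 to 4 counts), CTH, CBS and SLC7A11-AS1.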
